A study of Mus musculus with 8 samples.

Results

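The genes described are those that make, carry and break down GABA, together with the 2 chloride cotransporters that set how neurons respond to it. They are Gad1, Gad2, Slc32a1, Slc6a11, Slc6a13, Abat, Aldh5a1, Slc12a5 and Slc12a2, and they were found by taking every non-control spot of the arrays that carried 1 of these symbols. All 9 genes were on the array, with 12 probes among the 55681 probes other than controls, and all 12 probes were well above background in 8 of 8 mice. The tissue was punched out of the nucleus accumbens (NAc), the ventral part of the striatum, which takes part in reward and motivation. They came from adult male mice of the C3H/HeN strain. In the MS group (4 mice), pups were separated from the dam from postnatal day 2 to 14 while the dam was exposed to unpredictable stress, and in the control group (4 mice) they were not. Weaning on postnatal day 21, an operant task for sweetened milk in adulthood and fasting before sampling were common to both groups, and the study names fasting and unequal exposure to the palatable food as possible contributors to differences between them, which cannot be told apart here from the early separation. Each mouse had its own Agilent array, with Cy3-labelled cRNA made from 40 ng of RNA, and all 8 arrays lay on 1 slide. In each group 3 of the 4 mice share the leading digit of their number, and the labels do not say whether this marks a litter, so the p-values measure only the spread between these mice.

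GABA is the main inhibitory transmitter of the brain, and nearly all neurons of the NAc use it, the medium spiny projection neurons included. It is made from glutamate by the glutamate decarboxylases (Gad1 and Gad2), loaded into synaptic vesicles by Slc32a1, taken up again by plasma membrane carriers and degraded in mitochondria by GABA transaminase (Abat) and succinate semialdehyde dehydrogenase (Aldh5a1). Its main receptor is a chloride channel, so the effect of GABA also depends on the chloride gradient, to which the exporter Slc12a5 and the importer Slc12a2 contribute.

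A level is the log2 processed signal of a probe minus the 75th percentile of its own array, so that 0 stands for the 75th percentile and a difference of 1 is a doubling. Levels are compared between mice and not between probes, because probes bind with unequal strength. The arrays of both groups were of like quality. The share of probes well above background ranged from 57.3% to 69.7% and was highest in control replicate 4, and it did not separate the groups (two-sided exact permutation p = 0.829). The number of mice limits the precision.

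Of the 9 genes, Slc6a11 was the 1 whose levels in MS mice all lay below those of the controls, at 49.5% of the control signal. Its difference had an adjusted p of 0.101 in limma and so missed the threshold of 0.05. The enzymes of synthesis, the vesicular carrier, both enzymes of breakdown, the carrier Slc6a13 and both chloride cotransporters overlapped between the groups. By limma's adjusted p over 33111 probes, 0 of the 9 genes passed, where 1 probe (0.00302% of those tested) and 1 gene (0.00466% of 21480 named genes) passed in all. At an unadjusted p under 0.05 the count was 1 of 9 genes, against 14.2% of all named genes. For groups that did not overlap it was also 1 of 9, against 9.16% of all named genes. In sign, 6 genes were lower and 3 higher in MS mice, with a median difference of -0.06, where 50.3% of all named genes were lower and their median was -0.00. With the array median in place of the 75th percentile the split was 5 lower and 4 higher, and with quantile normalization it was 7 and 2.

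**Figure D1:**
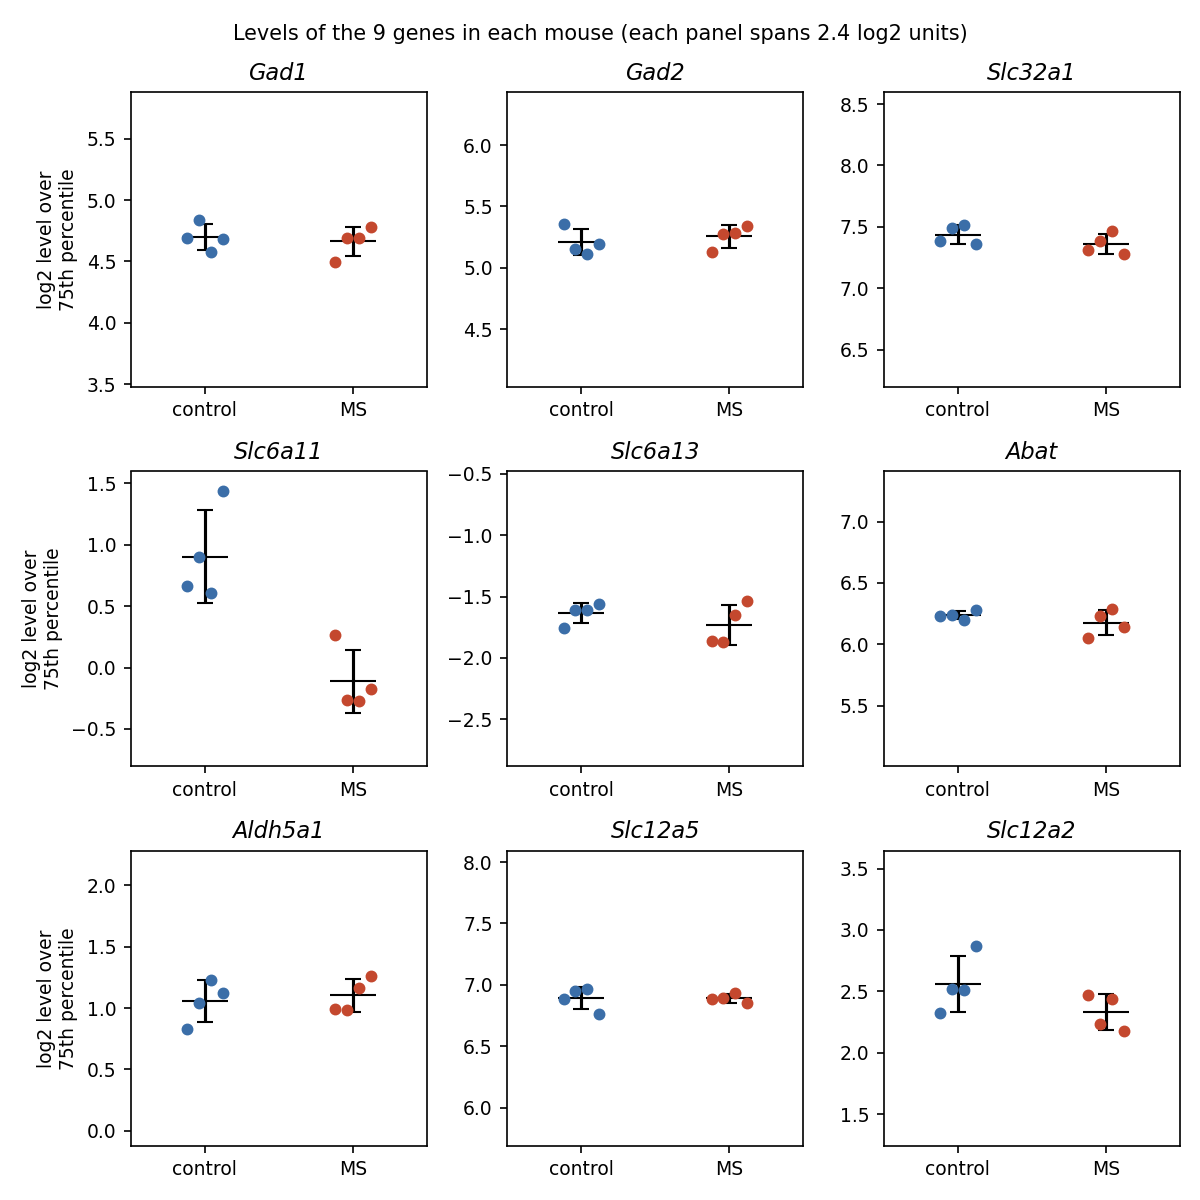
Levels of the 9 genes in each mouse, as log2 signal over the 75th percentile of the array, for control (blue) and MS (red) mice. Points are mice, black bars are the mean and SD (n = 4), each gene is shown by its brightest probe, and every panel spans 2.4 log2 units. The Slc6a11 points of the groups do not overlap, and those of the other 8 genes do.

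Of the genes, 3 were read by 2 probes at different places in the transcript. For the vesicular carrier Slc32a1 and the chloride exporter Slc12a5 the second probe lies nearer to the 5′ end than the first, starting at base 1487 against 2645 of the Slc32a1 transcript and at base 1135 against 5900 of the Slc12a5 transcript. These inner probes are shown because they give a reading of each gene that is separate from the one near the 3′ end. Both are 60 bases long, and no letters are in capitals because no part of them is singled out. In mouse build mm9 they lie on the plus strand at chr2:158440166-158440225 (Slc32a1) and chr2:164804887-164804946 (Slc12a5). Exons and introns were not assigned here, because no mm9 annotation was used.
Slc32a1 inner probe: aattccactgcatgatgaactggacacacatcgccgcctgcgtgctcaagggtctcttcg
Slc12a5 inner probe: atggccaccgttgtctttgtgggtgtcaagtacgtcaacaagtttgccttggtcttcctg

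Synthesis was measured by 1 probe for each decarboxylase. Gad1 encodes GAD67, the isoform found throughout the neuron that makes most of the brain's GABA, and its probe lies on mm9 chromosome 2 at 70439699 to 70439758. The Gad1 levels were 4.69, 4.83, 4.57 and 4.69 in control replicates 1 to 4 and 4.49, 4.69, 4.69 and 4.78 in MS replicates 1 to 4. The highest Gad1 level was in a control mouse and the lowest in an MS mouse, and the other values of both groups fell into the same range. The difference in Gad1 was -0.03 (95% interval of the limma fit -0.23 to 0.16, adjusted p = 0.908).

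Gad2 encodes GAD65, the isoform bound to synaptic vesicles at nerve endings, and its probe lies on chromosome 2 at 22549095 to 22549154. The Gad2 levels were 5.36, 5.16, 5.11 and 5.20 in the control mice and 5.13, 5.27, 5.29 and 5.34 in the MS mice. Both the highest and the lowest Gad2 level were in control mice. The difference in Gad2 was 0.05 (95% interval -0.13 to 0.23, limma adjusted p = 0.836). The 95% intervals of Gad1 (-0.23 to 0.16) and Gad2 (-0.13 to 0.23) were fitted separately, each for its own probe. Changes within them, in either direction, are not excluded. Set against each other within each array, Gad2 minus Gad1 was 0.08 higher in MS mice (two-sided exact permutation p = 0.314, adjusted p = 0.314 over 5 such differences). It was 0.02 without control replicate 2 and 0.14 without control replicate 1 (exact permutation p = 0.0286, adjusted p = 0.0714).

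Vesicle loading rests on Slc32a1, the vesicular carrier of GABA and glycine, whose brighter probe lies at 158441324 to 158441383 of chromosome 2. Its levels were 7.38, 7.49, 7.51 and 7.36 in the control mice and 7.31, 7.39, 7.47 and 7.28 in the MS mice. The groups overlapped, and the 2 lowest values were from MS mice. The difference was -0.07 (95% interval -0.24 to 0.09, limma adjusted p = 0.702). The inner probe shown above read 1.02, 1.05, 1.01 and 0.98 in controls and 1.04, 0.92, 0.44 and 0.96 in MS mice. MS replicate 3 was the lowest on the inner probe, while on the brighter probe it was the highest of the MS group. The inner probe differed by -0.17 (95% interval -0.46 to 0.11, limma adjusted p = 0.587), and by -0.04 without MS replicate 3.

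Uptake was measured for Slc6a11, which encodes GAT-3, a GABA carrier found chiefly on astrocytes and more abundant in subcortical regions than in cortex. Its probe lies on chromosome 6 at 114199514 to 114199573. The Slc6a11 levels were 0.67, 0.90, 0.61 and 1.44 in control replicates 1 to 4 and 0.27, -0.26, -0.27 and -0.17 in MS replicates 1 to 4. As processed signals these were 603, 593, 452 and 1167 in controls and 386, 329, 314 and 339 in MS mice. All 4 control mice were above all 4 MS mice, control replicate 4 was the highest, and MS replicate 1 was the nearest of its group to the controls.

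The Slc6a11 mean was 0.90 ± 0.38 in controls and -0.11 ± 0.26 after MS (SD, n = 4), which is a difference of -1.01 (SE 0.20, 95% interval -1.47 to -0.56). With the slide column as a block, which pairs 1 mouse of each group, the adjusted p was 0.242. Without the block, its unadjusted p in limma was 0.000768, rank 249 of 33111 probes, and its adjusted p was 0.101. For this single value an exact permutation test gave a two-sided p of 0.0286, the smallest that 4 mice against 4 allow. The difference was -0.78 between the groups in 1 row of the slide and -1.25 in the other, and in the 4 slide columns, each with 1 mouse of each group, it was -0.94, -0.34, -1.07 and -1.70. Slc6a11 passed the threshold with normexp background correction (-0.88, adjusted p = 0.0146), in the log2 values deposited by the authors (-0.91, adjusted p = 0.0254) and with a trended, robust variance model (-1.01, adjusted p = 0.0336). The fits that left out 1 mouse used the reported processing only, in which Slc6a11 missed the threshold with all mice too. It passed in none of these fits, and its difference in them ran from -1.14 to -0.84. Without control replicate 4 the difference was -0.84 (limma adjusted p = 0.157). Slc6a11 is among the genes that the study lists as changed in these same samples, so its direction here is not independent evidence.

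**Figure D2:**
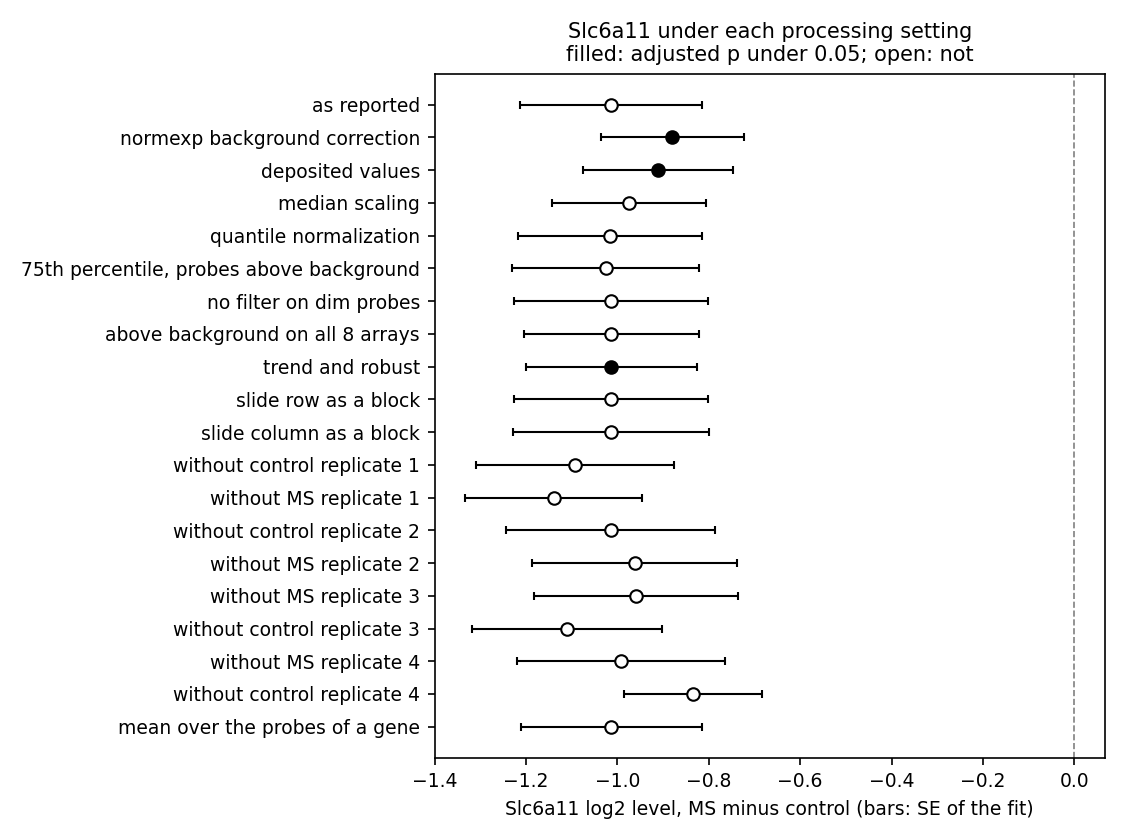
Difference in Slc6a11 between MS and control mice on the log2 scale (x axis) under the reported processing and 19 alternatives (y axis), with the SE of each limma fit as bars. Filled points passed an adjusted p of 0.05. All 20 values lie between -1.14 and -0.84, and 3 of them passed.

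The other uptake carrier, Slc6a13, encodes GAT-2, found mainly in the leptomeninges and at blood vessels, and its probe lies on chromosome 6 at 121287597 to 121287656. Its levels were -1.75, -1.61, -1.61 and -1.56 in the control mice and -1.86, -1.87, -1.65 and -1.54 in the MS mice. The highest and the lowest values were both from MS mice. The difference in Slc6a13 was -0.09 (95% interval -0.31 to 0.12, limma adjusted p = 0.707), and it ran from -0.16 without MS replicate 4 to -0.05 without MS replicate 2. Within each array, Slc6a11 minus Slc6a13 was 0.92 log2 units lower in MS mice than in controls, and the groups did not overlap (exact permutation p = 0.0286, adjusted p = 0.0476 over 5 differences). This pair of carriers differed in response by -0.60 in 1 slide row and by -1.24 in the other. In the 4 slide columns, each with 1 mouse of each group, it was -1.04, -0.09, -1.15 and -1.40.

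Because Slc6a11 is an astrocyte gene, markers of astrocytes were read beside it. Of 13 general astrocyte markers, 10 were lower and 3 higher in sign in MS mice, 0 passed limma's adjusted threshold, and 5, all lower, had an unadjusted p under 0.05, against 14.2% of all named genes. The groups did not overlap for 4 markers, all lower, against 5.40% of all named genes. The score of this list, the mean of its markers after each was centred on its own mean over the 8 mice, ran from -0.00 to 0.21 in controls and from -0.18 to -0.05 in MS mice. Their differences ran from -0.66 to 0.16, and Aldh1l1, an enzyme of folate metabolism used as a general astrocyte marker, was at -0.25. Slc6a11 minus the mean of these 13 markers was 0.79 lower in MS mice, with no overlap between the groups (exact permutation p = 0.0286, adjusted p = 0.0476). With normexp background correction the groups overlapped, with the highest MS value at 0.06 and the lowest control value at 0.04. Slc6a11 was not set against the markers of subcortical astrocytes, whose score differed by -1.42, where Slc6a11 differed by -1.01.

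The 5 markers of subcortical astrocytes were all lower in MS mice with no overlap between the groups, as were 5.40% of all named genes, and their limma adjusted p-values lay above 0.05. Their score ran from 0.49 to 1.09 in controls and from -0.995 to -0.48 in MS mice, a difference of -1.42, and they included Agt, which encodes angiotensinogen, at -1.999 and the glycine carrier Slc6a9 at -0.51. Of 8 tested markers of pallidal neurons, 7 were lower in sign, with scores of 0.21 to 0.96 in controls and -1.02 to -0.13 in MS mice. Their median difference was -1.11, and 0 passed limma's adjusted threshold. An unadjusted p under 0.05 in limma was reached by 6 of them, all lower, against 14.2% of all named genes. The groups did not overlap for 6, all lower, against 5.40% of all named genes. The study names Agt and some of the pallidal markers as changed in these same samples. The direction of both lists is therefore not independent evidence. Markers of the leptomeninges, where Slc6a13 is expressed, were 4 lower and 4 higher in sign of 8 tested. Oligodendrocyte markers were lower in sign for 9 of 10, microglia markers for 6 of 6 and markers of choroid plexus and ependyma for 1 of 4. The median difference was -0.17 for oligodendrocytes and -0.16 for microglia, as against -0.16 for general astrocytes. In these lists other than astrocytes and leptomeninges, 0 markers had an unadjusted p under 0.05 in limma, against 14.2% of all named genes. Whether a different share of such cells in the punches has a part in the Slc6a11 result was not tested. In tissue, fewer cells of a type and less RNA per cell cannot be told apart.

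Breakdown starts with Abat, whose brighter probe lies on chromosome 16 at 8621576 to 8621635. Its levels were 6.23, 6.24, 6.198 and 6.28 in the control mice and 6.05, 6.23, 6.29 and 6.14 in the MS mice. The controls lay close together, with an SD of 0.03 against 0.10 in MS mice, and fell within the range of the MS group. The difference was -0.06 (95% interval -0.22 to 0.11, limma adjusted p = 0.760). A dim second Abat probe, at 8603069 to 8603128, matches another transcript record of the gene, 18507 bases away from the first. It read -4.18, -4.26, -4.38 and -4.34 in controls and -4.25, -3.86, -4.18 and -3.73 in MS mice. Here 2 MS mice were above every control, and the difference of 0.28 (95% interval 0.00 to 0.57, limma adjusted p = 0.352) was opposite in sign to that of the brighter probe. Its signals were only 14.2 to 28.8, and it differed by 0.04 with normexp background correction and by 0.17 in the deposited values, so the size depends on how background is handled.

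Aldh5a1 completes the breakdown to succinate, and its probe lies on the minus strand of chromosome 13 at 25003412 to 25003471. Its levels were 0.83, 1.04, 1.23 and 1.12 in the control mice and 0.995, 0.99, 1.16 and 1.26 in the MS mice. The groups overlapped throughout, with the lowest level in control replicate 1 and the highest in MS replicate 4. The difference in Aldh5a1 was 0.05 (95% interval -0.20 to 0.29, limma adjusted p = 0.894), and it fell to -0.03 without control replicate 1 and to -0.01 without MS replicate 4.

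**Figure D3:**
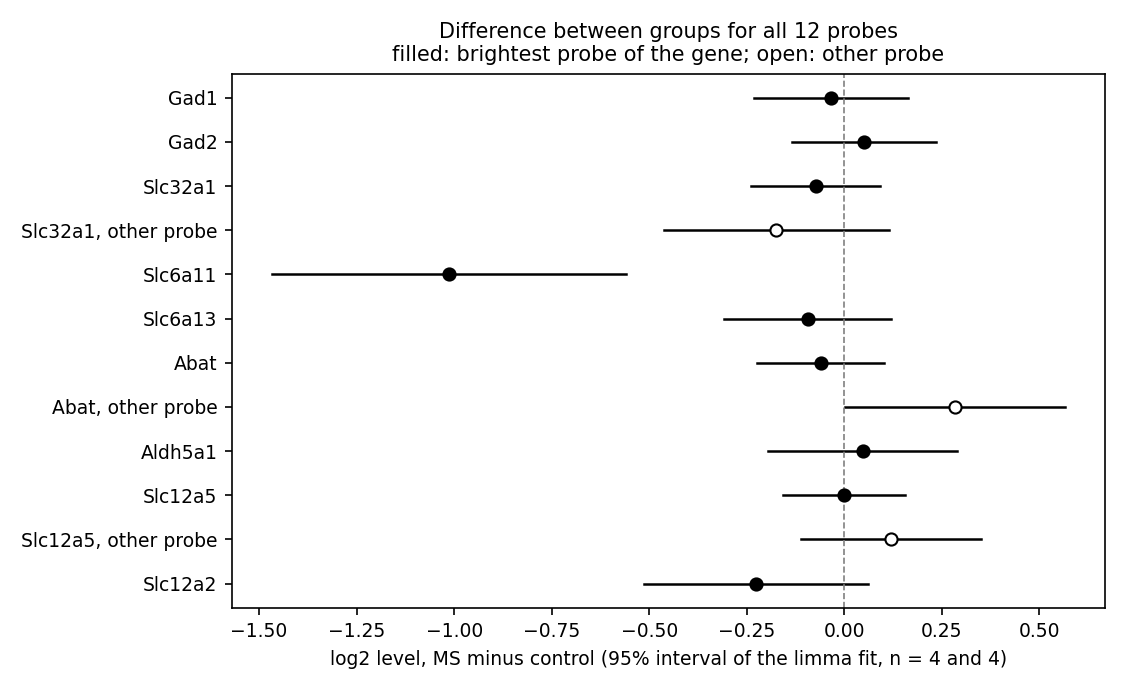
Difference between MS and control mice on the log2 scale (x axis) for all 12 probes of the 9 genes (y axis), with the 95% interval of the limma fit (n = 4 and 4). Filled points are the brightest probe of a gene and open points its other probe. Slc6a11 stands at -1.01, and the other 11 probes lie between -0.23 and 0.28.

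For chloride, the neuronal exporter Slc12a5 (KCC2), which keeps chloride low in mature neurons, had the difference closest to 0 among the 9 genes. Its brighter probe, at 164825109 to 164825168 of chromosome 2, read 6.89, 6.95, 6.96 and 6.76 in the control mice and 6.89, 6.89, 6.93 and 6.85 in the MS mice. The MS values all lay within the range of the controls. The difference was 0.00 (95% interval -0.16 to 0.16), and its sign turned with quantile normalization, with the deposited values and with the 75th percentile over probes above background on all arrays. The inner probe shown above read -0.92, -0.67, -0.67 and -0.71 in controls and -0.48, -0.55, -0.86 and -0.60 in MS mice, a difference of 0.12 (95% interval -0.11 to 0.35, limma adjusted p = 0.646).

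Slc12a2 encodes the chloride importer NKCC1, which is present in glia and other cells as well as in neurons. Its levels were 2.33, 2.52, 2.51 and 2.87 in the control mice and 2.47, 2.24, 2.44 and 2.18 in the MS mice. Control replicate 4 was the highest, as it was for Slc6a11, and control replicate 1 lay within the MS range. The difference in Slc12a2 was -0.23 (SE 0.13, 95% interval -0.51 to 0.06, limma adjusted p = 0.466), after Slc6a11 the next in size among the 9 genes. Without control replicate 4 it was -0.12, and in the slide rows it was -0.07 and -0.38. Slc12a5 minus Slc12a2 was 0.23 higher in MS mice (exact permutation p = 0.200, adjusted p = 0.250), and 0.08 higher without control replicate 4.

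Among the GABA neurons of the punches, the medium spiny neurons were read through their markers. All 12 of these markers were higher in sign in MS mice, with a median difference of 0.31. An unadjusted p under 0.05 was reached by 5 of them, against 14.2% of all named genes, and 0 passed the adjusted threshold of limma. The score ran from -0.53 to 0.07 in controls and from -0.03 to 0.27 in MS mice, and the lowest control was replicate 4. Drd1 and Drd2, the dopamine receptors that define the direct and the indirect pathway neurons, differed by 0.35 and 0.28. Slc32a1, which these neurons express, differed by -0.07, so that Slc32a1 minus the mean of the 12 markers was 0.42 lower in MS mice, with no overlap between the groups (exact permutation p = 0.0286, adjusted p = 0.0476). It was -0.29 in 1 slide row and -0.56 in the other, and -0.33, -0.09, -0.56 and -0.70 in the 4 slide columns. Of 10 markers of GABA interneurons, 7 were lower and 3 higher in sign. Slc32a1 was not set against this list or that of pallidal neurons, whose scores differed by -0.16 and -1.18. All 5 cortical excitatory markers were on the array, but 3 of them, Slc17a7 and Neurod6 included, were above background on too few arrays to be tested. The 2 that were tested were lower in sign, with scores of -0.41 to 1.28 in controls and -2.12 to 1.74 in MS mice, and with differences of -2.55 and 1.04 in the slide rows.

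Of the 5 within-array differences, 3 passed an adjusted p of 0.05, each at the smallest p the design allows. Their sizes changed little with normexp background correction (-0.80 for the carriers, -0.69 for Slc6a11 against astrocytes, -0.44 for Slc32a1), but their adjusted p-values were then 0.0714, 0.0952 and 0.0714. They also missed the threshold when any 1 mouse other than MS replicate 1 was left out, with adjusted p-values of 0.0714 or 0.0952. The differences for the carriers and for Slc6a11 against astrocytes share the same Slc6a11 values, so they are not separate results. For Slc6a11 alone the groups already did not overlap (exact permutation p = 0.0286), so the p-values of these differences add little to it. The genes and lists in these pairs were chosen with earlier results of these data known.

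**Figure D4:**
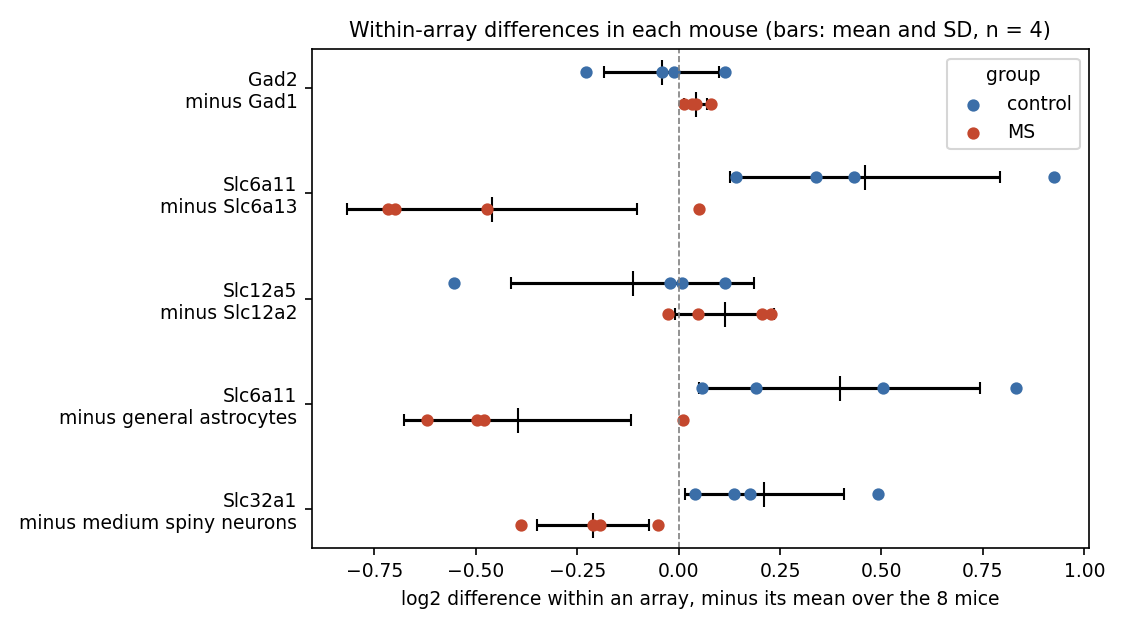
Difference of 2 log2 levels within each array, minus its mean over the 8 mice (x axis), for the 5 pairs compared (y axis), in control (blue) and MS (red) mice. Points are mice and bars the mean and SD (n = 4). The groups do not overlap for Slc6a11 minus Slc6a13, Slc6a11 minus general astrocyte markers and Slc32a1 minus medium spiny neuron markers.

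The genes around these 9 were taken as whole lists, 78 genes in all, of which 77 were on the array and 71 were tested. By limma's adjusted p, 0 of 71 passed. There were 3 that passed with normexp background correction, Gabrb2 and Aldh9a1 among them, 2 in the deposited log2 values, Gabrb2 among them, and 3 with the trended, robust variance model, all lower in MS mice. Over all probes, 486 of 33111 passed with normexp background correction and 504 of 33111 with the variance model. In the deposited values 375 probes passed. Whether the pathway genes passed more often than other genes in these settings was not tested. At an unadjusted p under 0.05 there were 13 of 71 in either direction, against 14.2% of all named genes. In sign, 49 were lower and 22 higher, but with the array median as the scale the split was 36 and 35.

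Of 15 tested GABA-A receptor subunits, 10 were lower and 5 higher in sign, and 5 lower and 1 higher without overlap between the groups, where 5.40% and 3.77% of all named genes did so. Gabrb2, a beta subunit of the receptor, stood at 3.99 ± 0.10 in controls and 3.59 ± 0.11 after MS (SD, n = 4), and so differed by -0.41 (SE 0.08, limma adjusted p = 0.108). It is among the genes the study lists as changed in these samples, so its direction is not independent evidence. Of 6 tested genes of the GABA-B receptor and its auxiliary proteins, 3 were lower and 3 higher in sign, and the auxiliary subunits Kctd16 and Kctd12 differed by 0.23 and 0.09. In the scaffold of inhibitory synapses, 6 of 9 genes were lower in sign, but all 9 were higher when the arrays were scaled on their median. Shisa7, a GABA-A receptor auxiliary protein, differed by 0.17 with no overlap between the groups (limma adjusted p = 0.287).

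The supply of glutamine and glutamate, from which GABA is made, had 6 genes lower and 2 higher in sign of 8. Its lowest unadjusted p-values were those of Slc38a1, a neuronal glutamine carrier, at -0.30 (limma adjusted p = 0.221), and of glutamate dehydrogenase Glud1, at -0.11 (limma adjusted p = 0.491). Of the enzymes of further breakdown and alternative synthesis of GABA, 9 of 9 were lower in sign, and 8 of 9 with normexp background correction or with the array median as the scale. Aldh9a1, an aldehyde dehydrogenase that can form GABA from a putrescine product, stood at 1.67 ± 0.10 in controls and 1.28 ± 0.14 after MS (SD, n = 4), and so differed by -0.39 (limma adjusted p = 0.136, SE 0.09). Suclg2, a subunit of succinyl-CoA ligase, differed by -0.20.

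Among 14 tested genes of other chloride transport and its kinases, 10 were lower and 4 higher in sign. The potassium-chloride cotransporter Slc12a7 differed by -0.37 (limma adjusted p = 0.169), and Slc4a3, an anion exchanger, by 0.18 (limma adjusted p = 0.393). Transcription factors of GABA neurons were 4 lower and 4 higher in sign. Of the other carriers of GABA and related amino acids 2 were tested, 1 lower and 1 higher in sign.

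**Figure D5:**
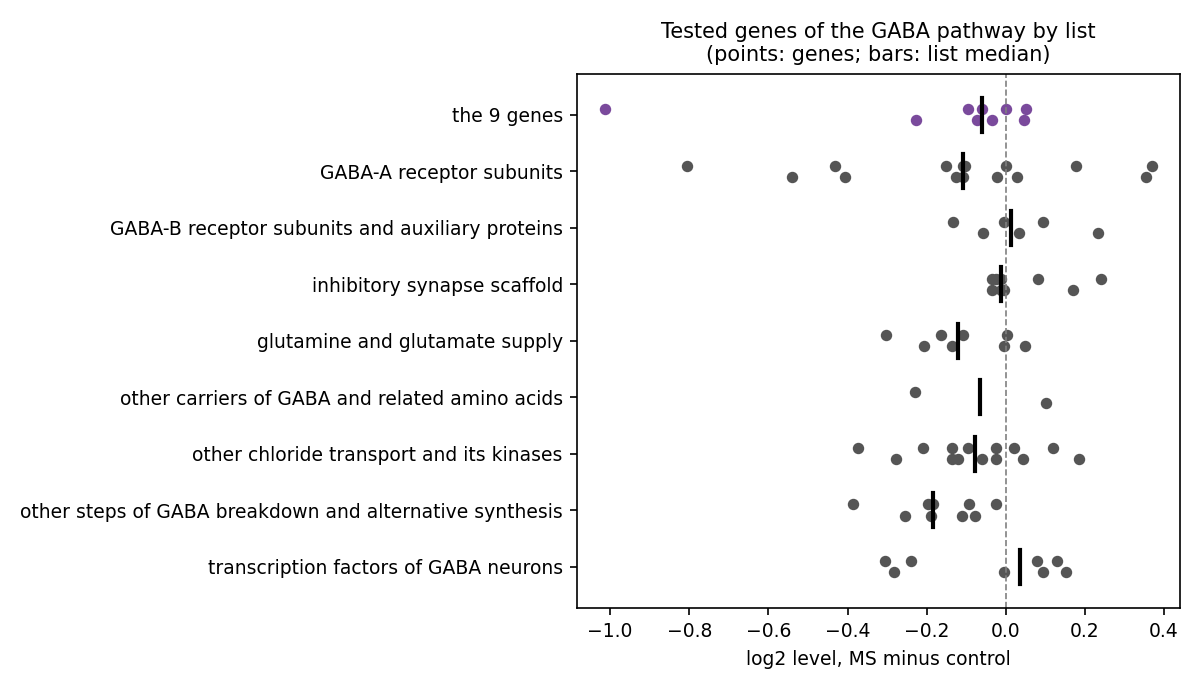
Difference between MS and control mice on the log2 scale (x axis) for the 9 genes (purple) and the 71 tested genes of 8 lists of the GABA pathway (grey, y axis). Points are genes and black bars the median of a list. Slc6a11 at -1.01 lies lowest among the 9 genes and below every gene of the lists.

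Likeness of pattern was measured as Pearson's r over the 8 mice after the mean of each group was removed, between each gene and 21471 others. For Slc6a11 the highest values were those of 9030025P20Rik (r = 0.993) and the pseudogene Tmem181b-ps (r = 0.981), which differed between the groups by -0.05 and 0.25. The closest genes to Gad1 and Gad2 were 5430416G10Rik (r = 0.984) and Mtrr (r = 0.973). Those to Slc32a1 and Slc6a13 were A630081J09Rik (r = 0.984) and Dnase1l1 (r = 0.995). Those to Abat, Aldh5a1, Slc12a5 and Slc12a2 were Luzp2 (r = 0.985), Pdzd9 (r = 0.989), Csnk1g3 (r = 0.979) and, among genes with a usual symbol, Polr3gl (r = 0.984). Each of the 9 genes had another gene at 0.97 or above, the points share 1 slide, and the values describe these 8 arrays only.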

How the data were processed

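The authors deposited scanner files of spot intensity, not log-transformed, from Agilent Feature Extraction 10.10.1.1, whose processed signal is background-subtracted. The authors also deposited log2 values for 31261 probes, which followed the log2 mean signal within each array (r of at least 0.9997); how these were normalized between arrays is not given in the sources used here. Probe names and mm9 coordinates are those of the file headers, whose array design differs from that in the study's methods, and other symbols were updated through RefSeq (GRCm38.p6). Control and outlier spots were left out, spots of a probe were averaged, and log2 processed signal was scaled on the 75th percentile of each array. Probes that at least 4 of 8 arrays measured well above background were tested with limma 3.58.1 in R 4.3.3, with Benjamini-Hochberg adjustment over 33111 probes. A gene was represented by its probe with the highest mean. Within-array differences were tested by exact two-sided permutation over 70 arrangements. Named genes were the 9 genes, their likest genes and the 2 lowest p-values of each pathway list, some of which are not reported here, and markers were named to give the level of a cell type. The genes and lists were chosen with earlier results of these data known. The fit was tested on simulated data.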

Additional observations from a re-analysis of the deposited data

How the results depend on the processing

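Slc6a11 was lower in MS mice under all 19 alternatives, with an adjusted p of 0.0146 to 0.296. Probes past the threshold numbered 1 as reported, 486 with normexp background correction, 375 with the deposited values, 81 with the array median as the scale, 113 with probes above background on all 8 arrays, 504 with the trended, robust variance model and 0 with no filter on dim probes (4850 at an unadjusted p under 0.05 in limma) or the slide column as a block (4080). When 1 mouse was left out they numbered 0 to 37, with 37 without control replicate 3. Of the 9 genes, 1 passed with normexp, the deposited values or the variance model, and of the other pathway genes 3, 2 and 3. Leaving out 1 mouse gave -1.09 to -0.76 for Slc6a11 minus Slc6a13, -0.93 to -0.65 for Slc6a11 minus general astrocyte markers and -0.48 to -0.33 for Slc32a1 minus medium spiny neuron markers, and these differences with normexp were -0.80, -0.69 and -0.44; the cause of the lost calls was not tested. Apart from that of Abat, differences that turned sign were close to 0. Gad1 was 0.0050 with the array median, and ran from -0.075 to 0.022 over the fits that left out 1 mouse. Abat was -0.06 on its brighter probe and 0.11 as a mean over its probes, which takes in the dim second probe at 0.28. Aldh5a1 ran from -0.028 to 0.105 when 1 mouse was left out. Slc12a5 was -0.038 with the deposited values, -0.033 with quantile normalization and -0.012 with the 75th percentile over probes above background, and ran from -0.042 to 0.025 when 1 mouse was left out. Within-array differences were not run with a slide block or the variance model. The replicate numbers do not pair the groups, since they follow the order of the samples; the slide column does, and as a block it left Slc6a11 at -1.01 with an adjusted p of 0.242. No probe was saturated, and the dim second Abat probe changed with the background correction.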
